A study of Mus musculus with 9 samples.

Results

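The genes described here build, move and anchor the contractile actin network of a megakaryocyte: nonmuscle myosin II and its light chains, actin crosslinkers and focal adhesion adaptors, calponins and tropomyosins, filament severing proteins, actin nucleators, small GTPases and kinases that act on myosin, and a few genes of the surrounding matrix. The 38 genes were listed by name, with integrins and galectins left out and with earlier results of these data known. Among 18193 genes, 37 of them were measured. Diap1 was found under its current symbol, Diaph1, and Rock2 was not analysed here. Arrays of L8057, a mouse megakaryocytic cell line, give their levels, with 3 arrays for each of 3 groups. A lentivirus brought in a hairpin RNA that targets CBFb (CBFb_KD) or Ring1b (Ring1b_KD), or the empty vector (Control). All 3 groups were infected, selected with puromycin from 48 h after infection and given 50 nM of the phorbol ester TPA for 3 days to bring on maturation, so that no group shows the line without virus, drug or TPA.

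As background, nonmuscle myosin II pulls on actin filaments when its regulatory light chain is phosphorylated, by myosin light chain kinase among others. Adaptors such as talin and vinculin pass that force to integrins and the matrix, and in megakaryocytes this machinery takes part in cell spreading and in the release of platelets. CBFb is the partner that stabilises RUNX proteins on DNA, and Ring1b, encoded by Rnf2, is the ubiquitin ligase of Polycomb repressive complex 1. In human megakaryocytes and platelets MYL9 is known as a gene that RUNX1 activates and MYH10 as one that it silences.

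Cbfb averaged 9.19 ± 0.11 in CBFb_KD and 12.23 ± 0.07 in Ring1b_KD, against 12.36 ± 0.12 in Control (log2 signal, SD, n = 3), a difference from Control of -3.17 in CBFb_KD (limma adjusted p = 3.28e-10). Rnf2 averaged 8.98 ± 0.08 in Ring1b_KD and 10.55 ± 0.02 in CBFb_KD, against 10.65 ± 0.08 in Control, a difference from Control of -1.67 in Ring1b_KD (limma adjusted p = 3.31e-07). Correlations over probe sets were 0.995 to 0.997 within groups and 0.986 to 0.994 between groups. Separate infection of the cultures of a group is not stated, so p-values cover no more than the spread among arrays, whose small number limits the precision. Pf4, which encodes a platelet chemokine, had group means of 14.73 in CBFb_KD, 14.27 in Ring1b_KD and 14.42 in Control, a defining marker of the labelled cell type. Over all genes 15.4% were called in CBFb_KD and 12.2% in Ring1b_KD (limma). Of 10 measured megakaryocyte markers, 5 rose in CBFb_KD and none fell (50% called), and in Ring1b_KD none rose and 1 fell (10%). The mean of these markers ran from 9.22 to 9.32 on the CBFb_KD arrays and from 7.95 to 8.46 on the Ring1b_KD arrays, against 8.17 to 8.50 on the Control arrays. Its part in the differences below was not tested, and in bulk RNA fewer cells of a type cannot be told from less RNA per cell. Of 4 measured erythroid markers, 1 rose in CBFb_KD, the erythropoietin receptor gene Epor (0.55), and none was called in Ring1b_KD. The erythroid mean ran from 8.45 to 8.67 in CBFb_KD and 8.29 to 8.54 in Ring1b_KD, against 8.25 to 8.35 in Control, with every CBFb_KD array above the Control arrays. None of 8 fibroblast, 6 smooth muscle, 6 macrophage or 4 endothelial markers was called in either knockdown. The smooth muscle mean ran from 6.62 to 6.69 in CBFb_KD and 6.68 to 6.70 in Ring1b_KD, against 6.60 to 6.61 in Control, so that both knockdowns lay above Control. The endothelial mean ran from 5.83 to 5.94 in CBFb_KD and 5.93 to 5.96 in Ring1b_KD, against 5.83 to 5.92 in Control, with all Ring1b_KD arrays above Control. The fibroblast mean ran from 6.44 to 6.45, 6.40 to 6.51 and 6.38 to 6.45 in CBFb_KD, Ring1b_KD and Control, and the macrophage mean from 6.60 to 6.77, 6.60 to 6.76 and 6.55 to 6.71. The part of these cell types in the results was not tested.

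Promoter sequence of 4 of the called genes is shown first, because the targeted CBFb acts through a DNA-binding partner. Mylk (chr16:34784700-34784999, plus strand) and Cnn2 (chr10:79988350-79988649, plus strand) were among the members that rose most in CBFb_KD, Was (chrX:8090442-8090741, minus strand) rose in both knockdowns, and Crim1 (chr17:78199998-78200297, plus strand) fell most in Ring1b_KD. Each window is RefSeq's for GRCm38.p6, runs from 250 bases before to 50 bases after an annotated start, and is written 5′ to 3′ in the direction of the gene.
Mylk: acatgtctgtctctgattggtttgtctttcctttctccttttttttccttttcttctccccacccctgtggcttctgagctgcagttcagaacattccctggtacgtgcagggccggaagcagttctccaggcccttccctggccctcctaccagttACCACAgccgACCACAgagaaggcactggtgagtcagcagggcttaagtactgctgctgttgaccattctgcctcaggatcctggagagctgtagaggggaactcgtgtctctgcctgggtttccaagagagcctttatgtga
Cnn2: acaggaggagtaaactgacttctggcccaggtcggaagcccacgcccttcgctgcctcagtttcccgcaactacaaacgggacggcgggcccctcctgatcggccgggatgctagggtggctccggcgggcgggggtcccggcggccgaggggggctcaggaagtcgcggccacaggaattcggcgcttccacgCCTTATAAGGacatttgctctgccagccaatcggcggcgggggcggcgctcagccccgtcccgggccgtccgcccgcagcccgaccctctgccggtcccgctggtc
Was: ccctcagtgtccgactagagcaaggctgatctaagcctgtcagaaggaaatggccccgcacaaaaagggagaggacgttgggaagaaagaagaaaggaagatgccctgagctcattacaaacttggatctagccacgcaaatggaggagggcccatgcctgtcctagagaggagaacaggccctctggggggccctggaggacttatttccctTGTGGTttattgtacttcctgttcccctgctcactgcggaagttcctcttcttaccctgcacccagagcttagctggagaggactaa
Crim1: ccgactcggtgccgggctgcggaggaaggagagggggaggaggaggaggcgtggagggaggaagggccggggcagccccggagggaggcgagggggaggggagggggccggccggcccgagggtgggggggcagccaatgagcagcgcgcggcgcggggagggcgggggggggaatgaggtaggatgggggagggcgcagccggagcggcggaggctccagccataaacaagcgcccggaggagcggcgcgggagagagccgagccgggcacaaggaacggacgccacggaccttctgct
Capitals mark matches to the core that RUNX proteins bind, searched as TGTGGT and TGCGGT on both strands (ACCACA and ACCGCA on the other), or to the CArG box that serum response factor (SRF) binds. In Mylk the core reads ACCACA and lies 93 and 83 bases before the start, and in Was it reads TGTGGT and lies 37 bases before the start. The window of Cnn2 holds a CArG box 56 bases before the start, and that of Crim1 holds neither motif. The Mylk start lies inside the span of the gene, whose other starts are not covered by this window. Windows were found for 32 of the 37 measured members, 41 windows in all, of which 11 (26.8%) held a RUNX core, against 22.4% of all 32851 windows. Those 11 belonged to Gsn, Ilk, Myl9, Mylk, Rhob, Tln1, Tpm1 and Was. Of the members called in CBFb_KD, only Mylk and Was held a RUNX core. The windows of Capg and Dag1, which also changed strongly and are not shown, held neither motif. A CArG box was found in 4 member windows (9.76%), of Cnn2, Myl6, Myl9 and Vcl, against 1.63% of all windows. A match of letters describes the window and does not show binding.

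With CBFb reduced, 5 members rose and 4 fell. The increases were of Mylk, the kinase of the myosin light chain (2.93-fold), Capg, a filament-capping protein (2.70-fold), Cnn2, a calponin (1.85-fold), Zyx, which encodes zyxin (1.35-fold), and Was, the Wiskott-Aldrich syndrome protein (1.34-fold). Dag1, the matrix receptor dystroglycan (1.62-fold), Tagln2, an actin-binding calponin relative (1.43-fold), Dstn, the depolymerising factor destrin (1.36-fold), and Flna, the crosslinker filamin A (1.33-fold), fell. The limma adjusted p was under 0.05 for these 9 of 37 members, and for 15.4% of all genes (7.78% higher, 7.6% lower). The median log2 fold change was 0.03 over the members and -0.01 over all genes, and 2 members, against 1.14% of all genes, were called at 2-fold or more. The arrays of CBFb_KD and Control did not overlap for 16 members, and for 31.6% of all genes.

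With Ring1b reduced, 6 members rose and 3 fell, and the 2 largest changes were decreases. Crim1, a transmembrane protein with cysteine-rich repeats that binds bone morphogenetic proteins, fell 3.86-fold, Dag1 2.60-fold and Capg 1.35-fold. Was rose 1.48-fold, Myl4, an alkali light chain of myosin, 1.34-fold, Ilk, the integrin-linked pseudokinase, 1.30-fold, Rock1, a kinase that raises myosin activity, 1.26-fold, Cnn3, a calponin, 1.22-fold and Myl12a, a regulatory light chain, 1.19-fold. The limma adjusted p was under 0.05 for these 9 of 37 members, and for 12.2% of all genes (5.66% higher, 6.57% lower). The median log2 fold change was 0.05 over the members and 0.01 over all genes, and 2 members, against 0.363% of all genes, were called at 2-fold or more. The arrays of Ring1b_KD and Control did not overlap for 14 members, and for 32.9% of all genes. The split depended on the scaling of the arrays, with 2 members higher and 4 lower on the values as deposited, and 1 higher and 6 lower with each array centred on its median. Over all genes the split moved as well, with 1029 higher and 1196 lower after quantile normalization, 882 and 1709 as deposited, and 352 and 2541 after centring. Without Control array 3 the members called were 3 (Was, Dag1 and Crim1), and without Ring1b_KD array 2 they were 4 (these and Vcl).

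**Figure D1:**
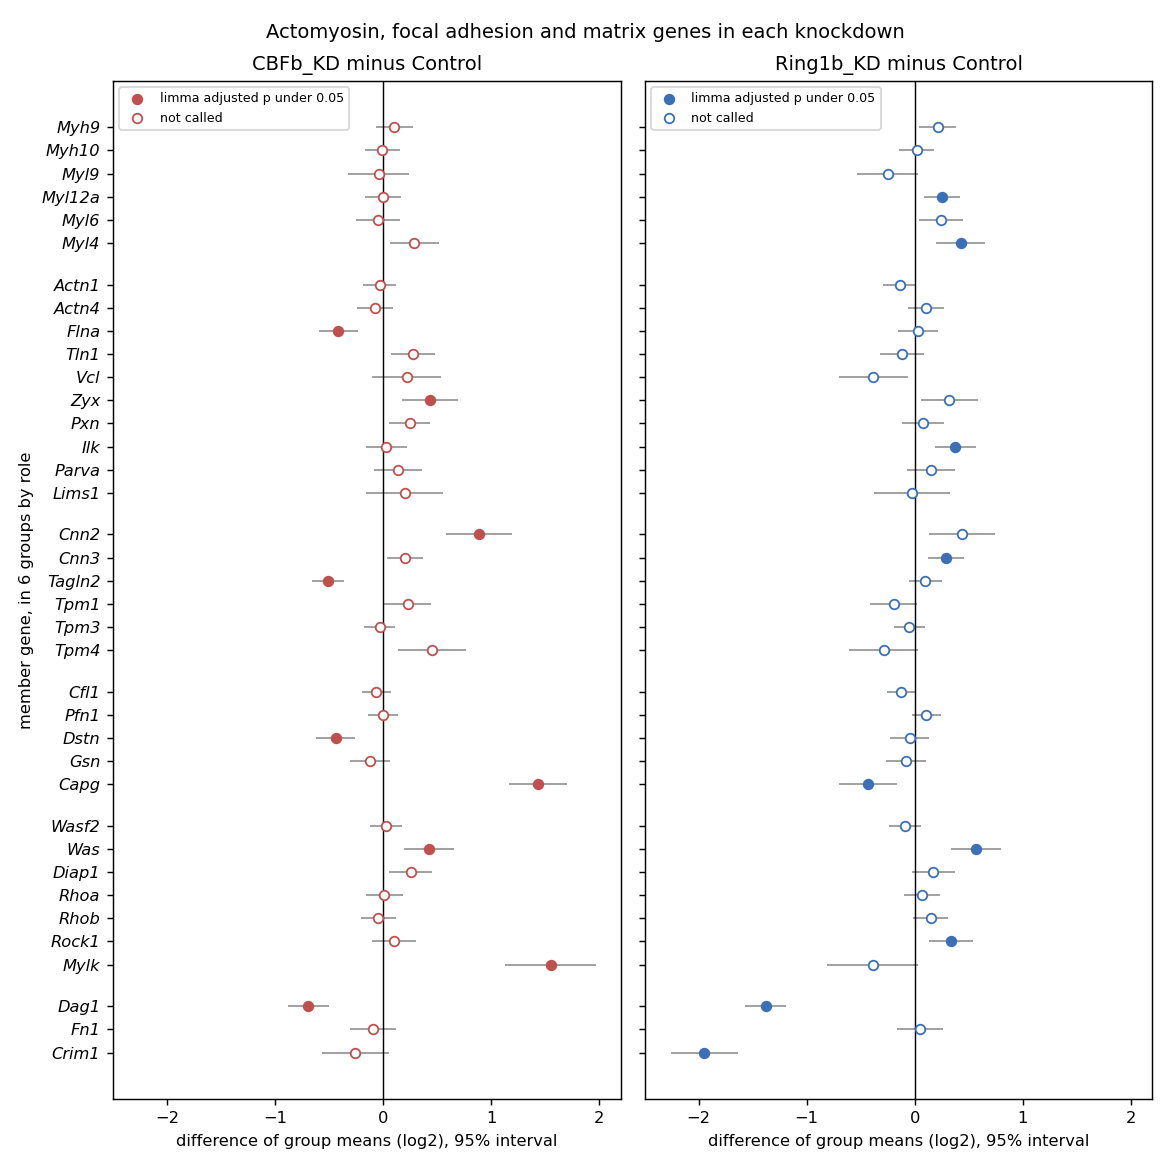
Difference of group means (log2, limma 95% interval) of 37 members in CBFb_KD (left) and Ring1b_KD (right) against the same Control arrays, in 6 groups by role. Filled points have a limma adjusted p under 0.05. Mylk and Capg lie farthest right in CBFb_KD, and Crim1 and Dag1 farthest left in Ring1b_KD.

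Set against each other, the knockdowns differed in 15 of 37 members, 9 higher and 6 lower in CBFb_KD than in Ring1b_KD (limma adjusted p under 0.05), where 19.4% of all genes were called (10.1% higher, 9.31% lower). Mylk (3.84-fold), Capg (3.65-fold) and Crim1 (3.23-fold) were more than 2-fold higher in CBFb_KD than in Ring1b_KD, where 1.23% of all genes were called at 2-fold or more. The arrays did not overlap for 22 members, and for 33.8% of all genes. The other differences were smaller, from 1.19-fold to 1.67-fold. The split was 9 higher and 4 lower on the values as deposited and 11 and 1 with centring on medians, and over all genes 1843 and 1693 after quantile normalization, 2118 and 1285 as deposited, and 2709 and 514 with centring. Without CBFb_KD array 3, 9 members were called. The moderated F test over the 3 groups called 19 of 37 members and 25.8% of all genes. Both knockdowns were set against the same Control arrays, and 3 members (Was and Dag1 in the same direction, Capg in opposite directions) were called in both, where 4.56% of all genes were.

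**Figure D2:**
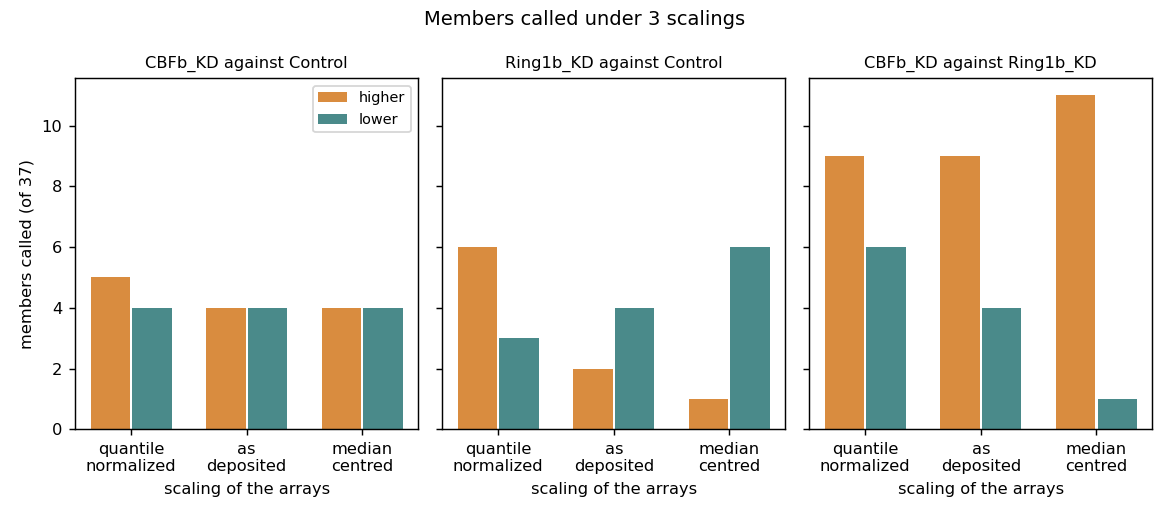
Number of the 37 members called (limma adjusted p under 0.05) higher (orange) and lower (teal) in each comparison, by the scaling of the arrays. In Ring1b_KD against Control the 6 higher and 3 lower after quantile normalization become 1 higher and 6 lower after centring, while CBFb_KD against Control stays at 4 or 5 higher and 4 lower.

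Differences from here on are of group means on the log2 scale. Among the 6 myosin II chains, none was called in CBFb_KD, while Myl4 and Myl12a rose in Ring1b_KD. Myl4 stood at 6.93, 6.66 and 6.57 in CBFb_KD and 6.82, 7.04 and 6.71 in Ring1b_KD, against 6.41, 6.39 and 6.49 in Control (log2 signal). Every array of either knockdown lay above the Control arrays, by 0.29 on average in CBFb_KD (limma adjusted p = 0.0929) and 0.42 in Ring1b_KD (0.0203). The call in Ring1b_KD was lost without Ring1b_KD array 2 (0.33, limma adjusted p = 0.0798) or without any 1 Control array (0.41 to 0.45), and another probe set had a log2 fold change of 0.01 there. Myl12a stood at 12.76, 12.80 and 12.74 in CBFb_KD and 13.15, 13.02 and 12.89 in Ring1b_KD, against 12.83, 12.83 and 12.64 in Control. The Ring1b_KD arrays lay above both other groups by a small step, 0.25 in log2 fold change against Control (limma adjusted p = 0.0483). Myl12a was lower in CBFb_KD than in Ring1b_KD as well (-0.25, limma adjusted p = 0.0354). The call against Control held in 1 of the 9 fits that left out an array and the call between the knockdowns in 4. With centring on medians the log2 fold change against Control was 0.10 (limma adjusted p = 0.548). Another probe set of Myl12a had -0.06 in Ring1b_KD against Control and 0.00 between the knockdowns. An average over its probe sets lost both calls (limma adjusted p = 0.485 and 0.308).

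Myh9, the main heavy chain of myosin II in platelets, differed from Control by 0.10 in CBFb_KD and 0.21 in Ring1b_KD (limma adjusted p = 0.493 and 0.0994), and by 0.28 in Ring1b_KD without its array 3 (0.0403). One of its other 4 probe sets rose in CBFb_KD, by 0.25 (limma adjusted p = 0.041 over single-symbol probe sets). Myh10, the heavy chain that RUNX1 is known to silence in human megakaryocytes, stood at 11.62, 11.49 and 11.42 in CBFb_KD, 11.48, 11.49 and 11.63 in Ring1b_KD and 11.55, 11.52 and 11.49 in Control. The groups overlapped, and the 95% interval of its log2 fold change ran from -0.17 to 0.15 in CBFb_KD. Myl9, the regulatory light chain that RUNX1 is known to activate in human cells, differed from Control by -0.04 in CBFb_KD (95% interval -0.33 to 0.24) and -0.25 in Ring1b_KD (limma adjusted p = 0.897 and 0.248). Its values ran from 4.47 to 5.18 over the 9 arrays, near the low end of the scale, where a change is hard to see. Myl6, the essential light chain, was lower in CBFb_KD, by -0.29 relative to Ring1b_KD (limma adjusted p = 0.0483), a call that was lost in 7 of the 9 fits that left out an array, as without Ring1b_KD array 3 (limma adjusted p = 0.161).

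Of 10 crosslinkers and focal adhesion adaptors, Zyx rose and Flna fell in CBFb_KD, and Ilk rose in Ring1b_KD. Flna stood at 9.50, 9.27 and 9.38 in CBFb_KD and 9.88, 9.78 and 9.83 in Ring1b_KD, against 9.91, 9.75 and 9.74 in Control. The CBFb_KD arrays lay below all 6 others, with a log2 fold change of -0.41 against Control (SE 0.085, limma adjusted p = 0.00475). Against Ring1b_KD it was -0.44 (limma adjusted p = 0.00276), and -0.26 with centring on medians (limma adjusted p = 0.0611). Zyx, a LIM protein of focal adhesions and stress fibres, stood at 11.94, 11.78 and 12.18 in CBFb_KD and 11.95, 12.04 and 11.58 in Ring1b_KD, against 11.50, 11.47 and 11.64 in Control. Ring1b_KD array 3 lay among the Control values, while the other knockdown arrays lay above them. Its log2 fold change in CBFb_KD was 0.43 (limma adjusted p = 0.0284), 0.33 without CBFb_KD array 3 (limma adjusted p = 0.13), and 0.40 to 0.44 without CBFb_KD array 1 or Control array 1 or 2, where it lost the call too. It was also not called on the values as deposited (0.41, limma adjusted p = 0.0522), with centring (0.40, limma adjusted p = 0.0778) or with an average over its probe sets (0.32, limma adjusted p = 0.0729). In Ring1b_KD Zyx differed by 0.32 (limma adjusted p = 0.107), and by 0.46 without Ring1b_KD array 3 (0.0172). Ilk stood at 11.41, 11.41 and 11.33 in CBFb_KD and 11.89, 11.77 and 11.53 in Ring1b_KD, against 11.40, 11.39 and 11.27 in Control. The Ring1b_KD arrays lay above all others and spread among themselves, with a log2 fold change of 0.37 against Control (limma adjusted p = 0.0159). Between CBFb_KD and Ring1b_KD the difference was -0.35 (limma adjusted p = 0.0154), not called without CBFb_KD array 3 (0.0654) or Ring1b_KD array 1 (0.0562), on the values as deposited (-0.28, limma adjusted p = 0.075) or with centring on medians (-0.20, limma adjusted p = 0.275). The call against Control was lost without Ring1b_KD array 1 (limma adjusted p = 0.0554) or 2 (0.0516) or Control array 3 (0.0754), on the values as deposited (0.28, limma adjusted p = 0.0889) and with centring (0.19, limma adjusted p = 0.306).

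Tln1 and Vcl, which encode talin and vinculin, the links from integrins to actin, were higher in CBFb_KD than in Ring1b_KD. Tln1 stood at 12.56, 12.52 and 12.84 in CBFb_KD and 12.16, 12.43 and 12.15 in Ring1b_KD, against 12.40, 12.32 and 12.37 in Control. Vcl stood at 11.72, 11.50 and 11.93 in CBFb_KD and 11.12, 11.43 and 10.79 in Ring1b_KD, against 11.66, 11.34 and 11.49 in Control. For both genes the Control arrays lay between or among the knockdown values, and neither was called against Control, although Tln1 in CBFb_KD (0.27, limma adjusted p = 0.0737) passed without Ring1b_KD array 2 (0.0443). The differences between the knockdowns were 0.39 for Tln1 (limma adjusted p = 0.0112) and 0.60 for Vcl (0.0126), and both calls were lost without CBFb_KD array 3 (limma adjusted p = 0.0548 and 0.0622) and with an average over probe sets (limma adjusted p = 0.103 and 0.0763). Vcl was called lower in Ring1b_KD than in Control without Ring1b_KD array 2 (-0.55, limma adjusted p = 0.0315) and with centring on medians (-0.59, limma adjusted p = 0.0167). The remaining adaptors were not called in any comparison. Pxn, which encodes paxillin, differed from Control by 0.24 in CBFb_KD (limma adjusted p = 0.0877) and was called higher in CBFb_KD than Ring1b_KD with centring (0.36, limma adjusted p = 0.0413), and the alpha-actinins Actn1 and Actn4 had -0.03 and -0.08. Parva and Lims1, which encode the partners of Ilk, parvin and PINCH, had 0.14 and 0.20 in CBFb_KD and 0.15 and -0.02 in Ring1b_KD.

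Of 6 calponin family and tropomyosin genes, whose products sit along the filament, Cnn2 rose and Tagln2 fell in CBFb_KD, and Cnn3 rose in Ring1b_KD. Cnn2 stood at 10.54, 10.50 and 10.67 in CBFb_KD and 10.21, 10.32 and 9.84 in Ring1b_KD, against 9.89, 9.79 and 9.37 in Control. The CBFb_KD arrays lay above all others, with a log2 fold change of 0.89 (SE 0.141, limma adjusted p = 0.000919). In Ring1b_KD it was 0.44 (limma adjusted p = 0.0628), and it passed there without Ring1b_KD array 3 (0.58, limma adjusted p = 0.0165) or Control array 1 (0.54, limma adjusted p = 0.049). The difference between CBFb_KD and Ring1b_KD was 0.45 (limma adjusted p = 0.0402), a call that held in 3 of the 9 fits that left out an array. Tagln2 ran the other way, with 12.07, 12.12 and 12.04 in CBFb_KD and 12.61, 12.66 and 12.79 in Ring1b_KD, against 12.64, 12.62 and 12.50 in Control. The CBFb_KD arrays lay below all 6 others, and the log2 fold changes were -0.51 against Control (SE 0.069, limma adjusted p = 0.000315) and -0.61 against Ring1b_KD (limma adjusted p = 6.96e-05). Its 3 probe sets all fell in CBFb_KD (log2 fold changes -0.51, -0.37 and -0.31). Cnn3 stood at 10.28, 10.25 and 10.31 in CBFb_KD and 10.37, 10.39 and 10.35 in Ring1b_KD, against 10.03, 10.20 and 10.00 in Control. All 6 knockdown arrays lay above Control, and the log2 fold change was 0.29 in Ring1b_KD (limma adjusted p = 0.0262) and 0.20 in CBFb_KD (0.0987). The call in Ring1b_KD was lost without Ring1b_KD array 1 (limma adjusted p = 0.0534) or 2 (0.0666) or Control array 1 (0.093) or 3 (0.117), on the values as deposited (0.18), with centring (0.10) and with an average over its probe sets (0.19).

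Of the tropomyosins, Tpm4 differed most between the knockdowns. It stood at 6.29, 6.10 and 5.71 in CBFb_KD and 5.56, 5.24 and 5.09 in Ring1b_KD, against 5.75, 5.46 and 5.54 in Control. The CBFb_KD arrays lay above the Ring1b_KD arrays by 0.74 (SE 0.146, limma adjusted p = 0.00338), and the Control values overlapped both groups. Against Control the log2 fold change in CBFb_KD was 0.45 (limma adjusted p = 0.0545), and a block on replicate number made it pass (0.45, limma adjusted p = 0.00424). It passed as well without CBFb_KD array 3 (0.61, limma adjusted p = 0.0114) or without Ring1b_KD array 1 or 3 (0.042 and 0.0451). Tpm1 was higher in CBFb_KD by 0.42 relative to Ring1b_KD (limma adjusted p = 0.0111), and by 0.33 without CBFb_KD array 3, where it was not called (limma adjusted p = 0.0583), and Tpm3 differed from Control by -0.03 in CBFb_KD and -0.05 in Ring1b_KD. A further probe set of Tpm3 was lower in Ring1b_KD than in Control (log2 fold change -0.35, limma adjusted p = 0.032 over single-symbol probe sets).

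Among 5 genes of filament turnover, Capg moved in opposite directions in the knockdowns. It stood at 10.15, 10.29 and 10.03 in CBFb_KD and 8.56, 8.32 and 7.98 in Ring1b_KD, against 8.75, 8.70 and 8.71 in Control. No groups overlapped, and the log2 fold changes were 1.43 in CBFb_KD (SE 0.123, limma adjusted p = 1.59e-05) and -0.43 in Ring1b_KD (limma adjusted p = 0.0372). The difference between the knockdowns was 1.87 (limma adjusted p = 1.16e-06). The decrease in Ring1b_KD lost its call without Ring1b_KD array 2 (-0.45, limma adjusted p = 0.0784) or 3 (-0.28, limma adjusted p = 0.0994) or any 1 Control array (-0.44 to -0.42). A further probe set of Capg differed from Control by 1.14 in CBFb_KD and -0.44 in Ring1b_KD (limma adjusted p = 0.026 over single-symbol probe sets). Dstn, a cofilin relative that depolymerises filaments, stood at 11.28, 11.24 and 11.00 in CBFb_KD and 11.59, 11.60 and 11.50 in Ring1b_KD, against 11.63, 11.67 and 11.53 in Control. The CBFb_KD arrays lay below all others, at -0.44 against Control (SE 0.083, limma adjusted p = 0.00288) and -0.39 against Ring1b_KD (0.00534). The difference between the knockdowns was -0.22 with centring on medians (limma adjusted p = 0.137). The related Cfl1, cofilin, differed from Control by -0.07 in CBFb_KD and -0.12 in Ring1b_KD, Pfn1, the monomer-binding profilin, -0.00 and 0.11, and Gsn, gelsolin of the same family as Capg, -0.12 and -0.08, none of them called.

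**Figure D3:**
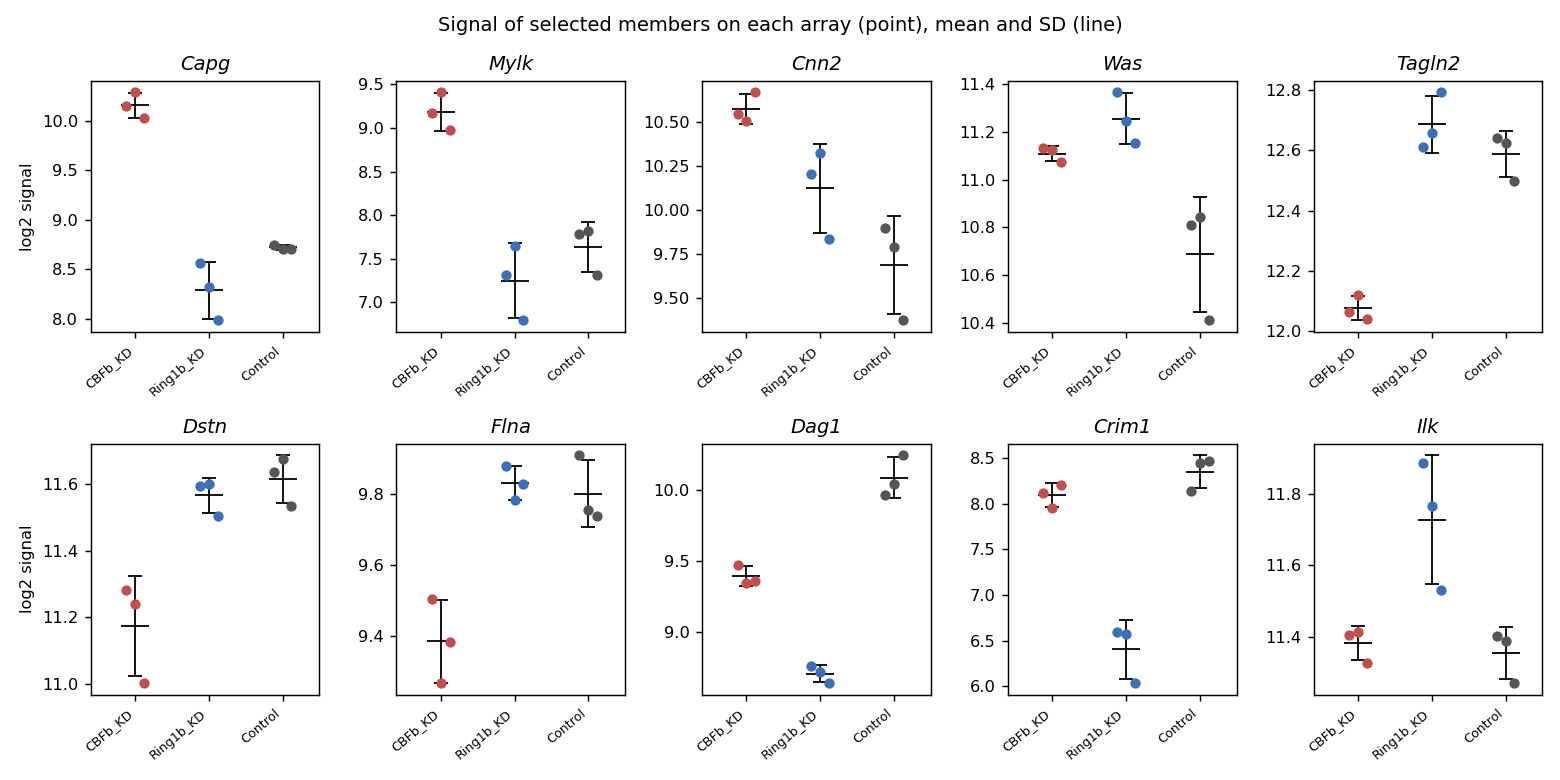
Log2 signal of selected members on each of the 9 arrays, with CBFb_KD left of Ring1b_KD and Control at the right of each panel. Points are arrays, and lines are group means with their SD. In CBFb_KD, Capg and Mylk lie above every Control array, and in Ring1b_KD, Crim1 and Dag1 lie below every Control array.

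Of 7 measured nucleation, small GTPase and myosin kinase genes, Mylk and Was rose in CBFb_KD, and Was and Rock1 in Ring1b_KD. Mylk stood at 9.17, 9.41 and 8.98 in CBFb_KD and 7.31, 7.64 and 6.79 in Ring1b_KD, against 7.79, 7.82 and 7.31 in Control. All 3 CBFb_KD arrays lay above all others, by 1.55 in log2 fold change against Control (SE 0.193, limma adjusted p = 0.000183) and 1.94 against Ring1b_KD (limma adjusted p = 2.59e-05). In Ring1b_KD the log2 fold change was -0.39 (limma adjusted p = 0.217), and a block on replicate number made it pass (limma adjusted p = 0.0179). The 3 probe sets of Mylk rose in CBFb_KD by 1.55, 0.90 and 0.52. Mylk lies on chromosome 16 from 34745199 to 35002436 in GRCm38.p6.

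Was activates the Arp2/3 complex in blood cells. It stood at 11.13, 11.12 and 11.07 in CBFb_KD and 11.37, 11.25 and 11.15 in Ring1b_KD, against 10.81, 10.84 and 10.41 in Control. All 6 knockdown arrays lay above Control, and Control array 3 was the lowest of the 9. The log2 fold changes were 0.42 in CBFb_KD (limma adjusted p = 0.0158) and 0.57 in Ring1b_KD (0.00449). Without Control array 3 the value in CBFb_KD was 0.28 (limma adjusted p = 0.0625), and without CBFb_KD array 2 it was 0.42 (limma adjusted p = 0.0502). In Ring1b_KD the call held in all 9 fits that left out an array and was lost with centring on medians (0.38, limma adjusted p = 0.0588). Rock1 stood at 10.92, 11.04 and 11.04 in CBFb_KD and 11.46, 11.17 and 11.08 in Ring1b_KD, against 10.82, 10.96 and 10.91 in Control. Ring1b_KD array 1 was the highest, and the log2 fold change there was 0.34 (limma adjusted p = 0.0337), or 0.23 without it (limma adjusted p = 0.093). It also lost the call without Ring1b_KD array 2 or any 1 Control array (0.30 to 0.37) and on the values as deposited (0.23). With centring on medians it was 0.15 (limma adjusted p = 0.503), and with an average over its probe sets 0.09 (limma adjusted p = 0.51). Its other 4 probe sets had log2 fold changes of -0.08 to 0.10.

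The remaining genes of this group were not called. Diap1, a formin that elongates filaments, differed from Control by 0.25 in CBFb_KD and 0.17 in Ring1b_KD (limma adjusted p = 0.0848 and 0.253). The first passed without Ring1b_KD array 2 or 3 (limma adjusted p = 0.0492 and 0.0148), and the second without Ring1b_KD array 3 (0.29, limma adjusted p = 0.0205). For Rhoa, the GTPase upstream of Rock1, these differences were 0.01 and 0.06. A further Rhoa probe set, dim with a mean of 4.24, rose by 0.34 in Ring1b_KD (limma adjusted p = 0.026 over single-symbol probe sets). Another, with a mean of 11.70, differed there by -0.0006. Rhob, whose signal lay between 4.23 and 4.55 on all arrays, had -0.04 and 0.15, and Wasf2, a WAVE protein, 0.03 and -0.09.

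Of the 3 members grouped as matrix and matrix receptor, Crim1 and Dag1 gave the largest decreases among the members, in Ring1b_KD, and Fn1 was not called. Crim1 stood at 8.12, 7.96 and 8.21 in CBFb_KD and 6.60, 6.58 and 6.03 in Ring1b_KD, against 8.14, 8.45 and 8.47 in Control. The Ring1b_KD arrays lay more than 1 log2 unit below every other array, with a log2 fold change of -1.95 (SE 0.143, limma adjusted p = 7.47e-06). In CBFb_KD it was -0.26 (limma adjusted p = 0.309), and the difference between the knockdowns was 1.69 (limma adjusted p = 8.28e-06). Both probe sets of Crim1 fell in Ring1b_KD (log2 fold changes -1.95 and -1.59). Crim1 lies on chromosome 17 from 78200233 to 78376592 in GRCm38.p6. Dag1, on chromosome 9 from 108204861 to 108263977, stood at 9.47, 9.35 and 9.36 in CBFb_KD and 8.76, 8.72 and 8.64 in Ring1b_KD, against 9.97, 10.04 and 10.25 in Control. No groups overlapped, with Ring1b_KD lowest and Control highest. The log2 fold changes were -0.69 in CBFb_KD (SE 0.088, limma adjusted p = 0.000206) and -1.38 in Ring1b_KD (limma adjusted p = 1.95e-06), and the knockdowns differed by 0.69 (limma adjusted p = 0.000163). Its 4 probe sets disagreed. The others differed from Control by -0.08, -0.12 and -0.14 in CBFb_KD and by 0.09, -0.13 and -0.44 in Ring1b_KD, where the last was called (limma adjusted p = 0.024 over single-symbol probe sets). With Dag1 taken as the average of its probe sets the decreases were smaller and still called, at -0.26 in CBFb_KD (limma adjusted p = 0.0219) and -0.46 in Ring1b_KD (0.00174), and the difference between the knockdowns was 0.21 (limma adjusted p = 0.052). Fn1, which encodes fibronectin, differed from Control by -0.10 in CBFb_KD and 0.05 in Ring1b_KD, called in neither.

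**Figure D4:**
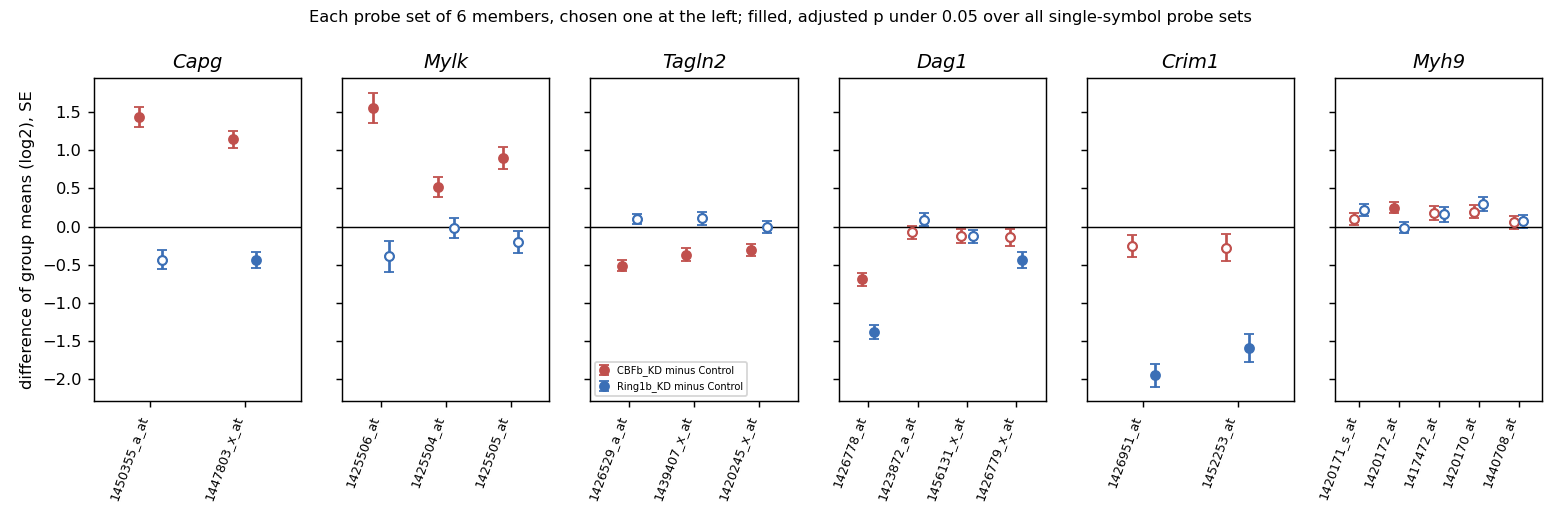
Log2 difference of group means (with SE) for each probe set of 6 members in CBFb_KD (red) and Ring1b_KD (blue) against Control, the chosen probe set at the left. Filled points have a limma adjusted p under 0.05 over single-symbol probe sets. All 3 probe sets of Mylk and of Tagln2 are filled in CBFb_KD, while for Dag1 the chosen one lies far below the others.

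The machinery around these genes was followed in 109 measured genes of 7 further lists, also chosen with earlier results of these data known. In CBFb_KD 21 rose and none fell (19.3%), and in Ring1b_KD 8 rose and 4 fell (11.0%), against the 15.4% and 12.2% of all genes called (limma). Between the knockdowns 14 were higher and 7 lower in CBFb_KD than in Ring1b_KD (19.3% called), against 19.4% of all genes. On the values as deposited the counts were 19 higher and 0 lower in CBFb_KD, 7 and 8 in Ring1b_KD, and 20 and 8 between the knockdowns. With centring on medians they were 16 and 0, 3 and 10, and 25 and 2. In fits that left out an array, between 16 and 23 rose in CBFb_KD. In Ring1b_KD 6 were called without Control array 2 and 7 without Control array 3. The shares of all genes include dim genes, where the lists differ from the whole. After a filter at the median gene, 2990 of all genes kept were called in CBFb_KD and 2527 in Ring1b_KD. Of the 66 list genes kept, 22 (33.3%) and 12 (18.2%) were called. No share of all genes kept is given here, so the 15.4% and 12.2% are no background for these 66 list genes. The megakaryocyte markers given above moved in CBFb_KD beside these genes, and their part was not tested.

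Focal adhesion adaptors outside the members rose in CBFb_KD in 7 of 18 cases (38.9%) and in Ring1b_KD in 2 (11.1%), and none fell. Over all genes 15.4% and 12.2% were called. Tns1, a tensin, stood at 11.55, 11.60 and 11.42 in CBFb_KD and 10.48, 10.73 and 10.02 in Ring1b_KD, against 10.82, 10.81 and 10.72 in Control. It rose in CBFb_KD by 0.74 (limma adjusted p = 0.00263). In Ring1b_KD it differed by -0.37 (limma adjusted p = 0.1), and was called lower on the values as deposited (-0.49, limma adjusted p = 0.04), with centring on medians (-0.58, limma adjusted p = 0.0202), with a block on replicate number (limma adjusted p = 0.0284) and without Ring1b_KD array 2 (-0.53, limma adjusted p = 0.0201). Ptk2b, a kinase of the focal adhesion kinase family, rose by 0.66 (0.00188), Trip6, a zyxin relative, by 0.46 (0.00318) and Fermt3, kindlin-3 of blood cells, by 0.42 (0.00186). In Ring1b_KD Pdlim1 rose by 0.68 (limma adjusted p = 0.00182) and Trip6 by 0.46 (0.00538).

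Crosslinkers, cappers and membrane linkers rose in CBFb_KD in 6 of 22 cases (27.3%), with none lower, and 2 rose and 2 fell in Ring1b_KD (18.2%). The shares of all genes called were 15.4% and 12.2%. Cttn, cortactin of branched actin, rose in CBFb_KD by 0.89 (limma adjusted p = 0.000998), Twf2, a twinfilin, by 0.62 (0.000279), Tmod3, which caps pointed ends, by 0.58 (0.00259) and Cap1, which recycles actin monomers, by 0.53 (0.0009). Radixin and moesin, encoded by Rdx and Msn, tie the membrane to actin. Rdx stood at 12.07, 12.10 and 12.23 in CBFb_KD and 11.28, 11.32 and 11.17 in Ring1b_KD, against 12.19, 12.32 and 12.36 in Control. Its change in Ring1b_KD was -1.03 (limma adjusted p = 7.28e-06), and Msn fell there too (-0.36, limma adjusted p = 0.023), a call lost without Ring1b_KD array 1 or 2 or Control array 1 or 2 (-0.35 to -0.30) and with an average over its probe sets (-0.39, limma adjusted p = 0.0979). Lcp1, the blood cell plastin, stood at 9.83, 10.44 and 9.25 in CBFb_KD and 11.12, 10.60 and 11.06 in Ring1b_KD, against 10.04, 9.76 and 8.82 in Control. All Ring1b_KD arrays lay above the others, which were widely spread, and the log2 fold change was 1.39 (limma adjusted p = 0.0106), which a robust variance left uncalled. Capza1, of the capping protein, rose there by 0.22 (limma adjusted p = 0.0382), a call that held in 3 of the 9 fits that left out an array. This call was also lost on the values as deposited (0.17) and with centring on medians (0.08).

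Among 10 measured genes of the Arp2/3 complex and its WAVE and WASP partners, 4 rose in CBFb_KD (40%) and 2 in Ring1b_KD (20%). Of all genes, 15.4% and 12.2% were called. Wipf1, which binds the protein made by Was, rose in CBFb_KD by 0.58 (limma adjusted p = 0.00713), and the Arp2/3 subunit gene Arpc2 by 0.27 (0.00396), the second not called with centring on medians. Arpc5 (0.27, limma adjusted p = 0.0333) and Abi1 (0.29, limma adjusted p = 0.049) kept the call in 6 and 3 of the 9 fits that left out an array. In Ring1b_KD Arpc2 rose by 0.24 (limma adjusted p = 0.0131; 0.0693 without Control array 3), and Brk1 by 0.24 (limma adjusted p = 0.0344), which held in 3 of 9 such fits. There Arpc2 also lost its call with centring (0.13) and with an average over its probe sets (0.08). Brk1 lost its call on the values as deposited (0.16) and with centring (0.07). All 6 actins measured were uncalled in both knockdowns. Of 25 close paralogs, Parvb rose in CBFb_KD by 0.68 (limma adjusted p = 0.000641) and Diaph3 fell in Ring1b_KD (-0.41, limma adjusted p = 0.0171), the second lost without Ring1b_KD array 2 or Control array 2 or 3 (limma adjusted p up to 0.0695).

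Matrix genes outside the members rose in 3 of 22 cases in CBFb_KD (13.6%) and in 2 in Ring1b_KD (9.09%), with none lower. Both shares lay below those of all genes called, 15.4% and 12.2%. Mmp14, a membrane-bound matrix protease, rose in CBFb_KD by 0.56 (limma adjusted p = 0.0011), and Col4a2, a basement membrane collagen, by 0.53 (0.0028). Srgn, the granule proteoglycan serglycin, rose by 0.28 in CBFb_KD (limma adjusted p = 0.0142) and 0.30 in Ring1b_KD (0.0137), and each call held in 6 of the 9 fits that left out an array. Hspg2, perlecan, rose in Ring1b_KD by 0.36 (limma adjusted p = 0.0209), which also held in 6 of 9 and was lost with centring (0.17) or an average over its probe sets (0.15). Srf, the factor that binds the CArG box, fell in Ring1b_KD, at -0.37 (limma adjusted p = 0.0151), a call lost without Ring1b_KD array 1 or Control array 2 (limma adjusted p up to 0.0747) and with an average over its probe sets (-0.09, limma adjusted p = 0.485). The other 5 genes of its list were not called in either knockdown.

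**Figure D5:**
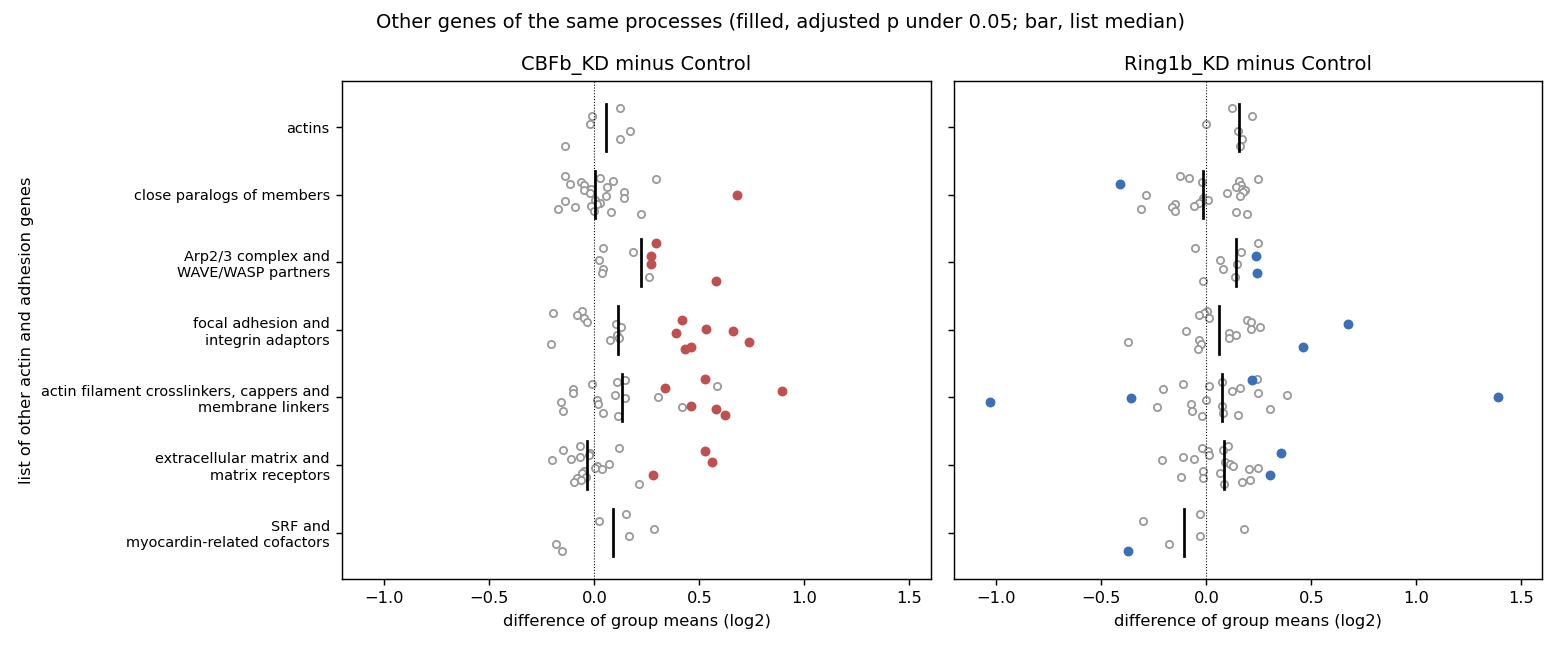
Log2 fold changes of the measured genes of 7 further lists in CBFb_KD and Ring1b_KD against Control, with called genes (limma adjusted p under 0.05) filled. In CBFb_KD all 21 called genes lie to the right of 0, and in Ring1b_KD 8 lie to the right and 4 to the left.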

How the data were processed

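RNA was hybridised to 9 arrays of short oligonucleotides in one colour, labelled from an oligo-dT primer per the labels' protocols, so the probed part of a transcript is what was seen. The deposited log2 values (3.227 to 15.355 over 45101 probe sets) are taken as log2 from their range, and the sources used here give neither their software nor their normalization. Array medians ran from 6.514 to 6.651, so the values were quantile normalized, which removes a shift between groups whether technical or biological. After 64 control probe sets were left out, 34945 had 1 symbol, 932 several and 9160 were unnamed, and each gene took its probe set with the highest mean, giving 18193 genes. In R 4.3.3, limma 3.58.1 fitted group means over all 9 arrays (lmFit, then eBayes with a trend). Benjamini-Hochberg adjustment of the two-sided p-values covered the 18193 genes, with calls made under 0.05. P-values for other probe sets were adjusted over single-symbol probe sets. The fit was tested on simulated data.

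Named genes were all members, up to 4 called genes per further list and knockdown by smallest adjusted p, and the targeted genes. Others were named after their values were seen. A further gene list is not reported here. Members and lists were chosen with earlier results of these data known. Deviations from group means of same-numbered CBFb_KD and Control arrays correlated at 0.203, 0.377 and 0.200, all over a set limit of 0.1. CBFb_KD array 1 and Control array 3, of unlike number, had 0.147, also over the limit. The other unlike-numbered pairs of CBFb_KD and Control ran from -0.346 to -0.000906. Every same-numbered pair of these groups thus lay above every unlike-numbered one. The main fit did not pair arrays. Same-numbered arrays of Ring1b_KD and Control correlated at -0.0677, 0.0436 and 0.153, and of CBFb_KD and Ring1b_KD at 0.0454, 0.104 and -0.0377, not all over 0.1. Alternatives were the values as deposited, centring on medians, the replicate number as a block, a robust variance, no trend, an average over the probe sets of each gene, a filter at the median gene (7.42) and leaving out each array.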

Additional observations from a re-analysis of the deposited data

How the results depend on the processing

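Of 1755 values of members under alternatives, 1567 kept direction and side of the threshold, 90 lost a call, 24 gained one, and 74 changed sign while not called in either fit. No value changed sign while called. With an average over the probe sets of each gene, 9 members were called between the knockdowns and 5 in Ring1b_KD, against 15 and 9 with chosen probe sets. In fits that left out an array, the members called numbered 8 to 11 in CBFb_KD, 3 (without Control replicate 3) to 12 (without Ring1b_KD replicate 3) in Ring1b_KD, and 9 (without CBFb_KD replicate 3) to 14 between the knockdowns. Ring1b_KD members numbered 5 without Ring1b_KD replicate 1 or Control replicate 1 or 2, and 4 without Ring1b_KD replicate 2. Over all genes the counts ran from 1751 (without Control replicate 3) to 2995 in CBFb_KD, with 1849 without CBFb_KD replicate 2, and from 1139 (without Control replicate 3) to 2365 in Ring1b_KD, with 1225 without Control replicate 2. They ran from 2377 to 3564 between the knockdowns and from 3518 to 4745 by the F test. The replicate block gave 3142 genes and 10 members in CBFb_KD, where Tpm4 gained its call, 2611 and 11 in Ring1b_KD, and 3938 and 15 between the knockdowns. The filter at the median gene dropped the dim members. It gave 2990 genes and 10 members in CBFb_KD, 2527 and 9 in Ring1b_KD, and 3657 and 14 between the knockdowns. The numbers of genes and members kept are not given here, so these counts show no shares. The shares of all genes set beside the member counts above include dim genes, and no share matched for brightness was worked out. The cause of the changes in the counts under alternatives was not tested.

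Calls held in all 9 fits that left out an array for 7 of 9 members in CBFb_KD (Flna, Cnn2, Tagln2, Dstn, Capg, Mylk and Dag1), 3 of 9 in Ring1b_KD (Was, Dag1 and Crim1) and 8 of 15 between the knockdowns.  Dim probe sets, as of Myl9 and Rhob, compress differences, and 3 arrays a group limit the precision.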
